A study of Mus musculus with 8 samples.

Results

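The genes described here encode the proteins that copy the genome in S phase. They were 42 genes out of 24583 named on the arrays, taken from a list of symbols: the Mcm2-7 helicase, the factors that load and start it, the replicative polymerases, the sliding clamp with its loader, the single-strand binding protein RPA, the enzymes that finish the lagging strand, and the histone chaperone CAF-1. Each gene was read from the brightest of its spots, and all 42 were measured. Gene expression was measured on one-colour arrays of the left lung lobe of mouse embryos at E14.5 (embryonic day), 9 h after the pregnant female was injected with doxycycline at 0.0015 mg per g of body weight. The 4 arrays titled experimental stand, by the study's methods, for Rosa26rtTA/rtTA; Tg(tet(o)sFgfr2b)/+ embryos, and the 4 titled control for Rosa26rtTA/rtTA; +/+ littermates. All 8 embryos therefore carried the transactivator, which the ubiquitous Rosa26 locus drives, and all were exposed to doxycycline. Only the embryos with the transgene can secrete the soluble Fgfr2b ectodomain, which captures the ligands of Fgfr2b. Titles also carry a number, 1 to 4, within each group. The sources used here give neither litter nor day, and each p-value refers to the variation among these 8 lobes, 1 from each embryo.

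Replication is set up before it begins. In G1, the origin recognition complex with Cdc6 and Cdt1 loads the Mcm2-7 ring onto DNA, and in S phase the kinase Cdc7 with its activator Dbf4, together with Cdc45, the GINS complex and Mcm10, turns that ring into a moving helicase. Many of these genes are transcribed late in G1 under E2f factors, whereas the genes of mitosis are mostly transcribed later, in G2. In the embryonic lung at this stage, cells of the epithelial tips and of the mesenchyme around them are dividing.

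The titles and the array values divide the lungs in different ways. Etv5, an Ets factor induced by Fgf signaling in distal epithelium, had log2 signals of 10.42 and 10.43 in experimental 1 and 2 and of 10.09 and 10.57 in control 1 and 2, against 13.11 and 13.26 in experimental 3 and 4 and 13.18 and 13.26 in control 3 and 4. Low Etv5 thus went with numbers 1 and 2 in both titled groups, and the numbers stand for no condition in the labels. Its difference was −2.83 by number (adjusted p = 0.00042) and 0.03 by titled group. The titles may therefore not mark the genotypes, and every difference of experimental minus control below is one between titles, which was not checked against genotype. Replication genes are described below both by titled group and by number, as numbers 1 and 2 against numbers 3 and 4, with 2 experimental and 2 control arrays on each side. This division by number was proposed after the Etv5 values were known, so the p-values for it describe these arrays and are not independent evidence of a condition. Of 24583 genes, 185 passed by number at an adjusted p under 0.05 (35 to 72 when any 1 array was left out), and 0 passed by titled group, where 876 had an unadjusted p under 0.05. Some other lists of markers also followed the numbers. All 7 markers of distal and alveolar type 2 epithelium passed the test and were lower in numbers 1 and 2 (median log2 difference −1.78). Their summed linear signal was 23163 to 42441, against 73318 to 75544 in numbers 3 and 4. Sftpc, the brightest of the 7 (mean log2 signal 15.33, next Id2 at 10.80), made up most of these sums. In numbers 3 and 4 Sftpc stood at 15.98 to 15.99, near the top of the signal range of the arrays. The narrow range of the sums there was therefore mainly that of Sftpc. Whether the upper end of the signal range limited its difference of −1.33 was not tested. Markers of epithelium in general were divided, with 5 of 7 lower and 2 higher in value in numbers 1 and 2 (median −0.18, 1 passed). All 6 smooth muscle markers were higher in value (median 0.53, 1 passed; sums of 38484 to 49706 against 28097 to 32883), as were all 9 markers of mesenchyme (median 0.14, 0 passed; sums of 113321 to 122720 against 98043 to 110437). In bulk RNA, fewer cells of a type and less RNA per cell cannot be told apart, and the part of these shifts in the values that follow was not tested. Sex-linked transcripts separated odd from even numbers in both titled groups, so that numbers 1 and 2 held both patterns, as did numbers 3 and 4. The array titled control 1 also stood apart in Krt5, a basal cell keratin, at 8.66 against 2.73 to 4.04 on the other 7 arrays.

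By titled group, no replication gene passed the test. By limma with Benjamini-Hochberg adjustment over all genes, 0 of 42 passed in the comparison of experimental with control arrays (0% of all genes passed), and the smallest adjusted p of a member was 0.9998. At an unadjusted p under 0.05 the count was 0 of 42, against 3.56% of all genes, and the unmoderated test also gave 0 passing members. In 0 of 42 did the titled groups separate without overlap, which 1.9% of all genes did. The median difference, experimental minus control, was −0.03 on the log2 scale (0.004 over all genes). A total of 27 of 42 were lower in value in experimental arrays, against 48.8% of all genes, but this count ran between 15 and 38 when 1 array at a time was left out. It was 15, and the median 0.03, without experimental 1. Averaged over the 42 genes, experimental arrays 1 to 4 had log2 signals of 10.50, 10.58, 10.79 and 10.83, and control arrays 1 to 4 had 10.57, 10.64, 10.78 and 10.83. The titled groups overlapped, while numbers 1 and 2 lay below numbers 3 and 4 in either of them.

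The member with the smallest unadjusted p by titled group was Orc1, the largest subunit of the origin recognition complex, with 6.64, 7.03, 7.46 and 7.38 on the experimental arrays 1 to 4 and 7.42, 7.22, 7.52 and 7.43 on the control arrays 1 to 4. Its difference was −0.27 (SE 0.19, 95% CI −0.70 to 0.16, adjusted p = 0.9998). The groups overlapped, and experimental 1 had the lowest signal of the 8. In the other complexes, the members with the smallest p differed by 0.07 (Mcm5), −0.08 (Gins3), −0.13 (Prim2), −0.14 (Pole2), −0.09 (Rfc2), −0.07 (Rpa3), −0.10 (Fen1) and −0.10 (Chaf1b), and the 95% CI of each held 0. The interval of Mcm2 ran from −0.38 to 0.55 and that of Cdc6 from −0.47 to 0.51 in this unpaired fit. With the number as a block they ran from −0.22 to 0.39 and from −0.22 to 0.26, and 0 of 42 had an unadjusted p under 0.05.

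By number, the median difference was below 0 in each of the 9 complexes (−0.33 to −0.10). In sign, 39 of 42 members were lower in numbers 1 and 2 than in numbers 3 and 4, against 50.2% of all genes, and the median difference was −0.24 (−0.001 over all genes). In 23 of 42, every array of numbers 1 and 2 lay below every array of numbers 3 and 4, against 5.39% of all genes, and in 0 of 42 every array lay above (5.17% of all genes). Since all 42 had a mean signal above the median of all genes, the counts can also be read against the 12291 genes above it, of which 8.88% lay wholly below in numbers 1 and 2 and 48.9% were lower in sign. No single member passed after adjustment over all genes: 0 of 42, against 0.753% of all genes in either direction, with a smallest adjusted p of 0.117. At an unadjusted p under 0.05, 23 of 42 were lower (6.88% of all genes, and 9.06% of those above the median signal) and 0 were higher (6.66%). The count of 23 at an unadjusted p under 0.05 became 15 without experimental 1, experimental 3, experimental 4 or control 4. The call of single members depended on how their spread was estimated. When the prior spread followed signal intensity, 12 passed (Mcm2, Mcm3, Mcm6, Mcm7, Mcm10, Cdc6, Dbf4, Pold2, Rpa1, Fen1, Chaf1a and Chaf1b), and when only genes above the median signal were tested, 6 passed (Mcm2, Cdc6, Cdc45, Dbf4, Rpa1 and Rpa2). All of these were lower in numbers 1 and 2.

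**Figure D1:**
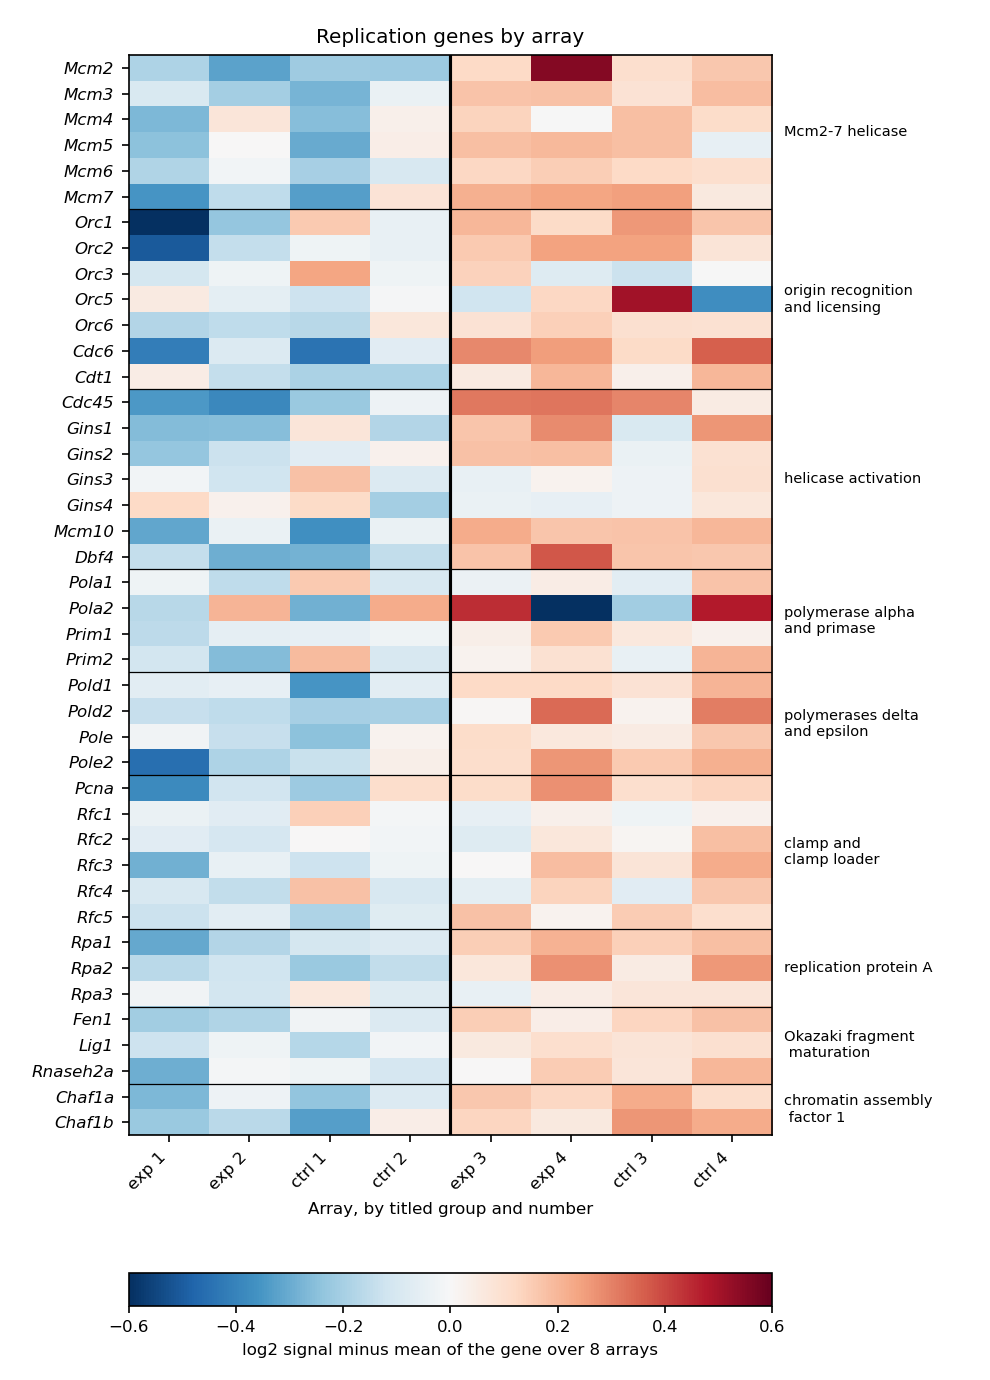
Log2 signal of the 42 replication genes (rows, grouped by complex) on the 8 arrays (columns), each as the difference from the gene's mean over the 8 arrays. The 4 arrays of numbers 1 and 2 stand left of the line and those of numbers 3 and 4 right of it, and 39 of 42 genes had a lower mean on the left; experimental and control columns of 1 side show no such division.

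The spread among lobes was small beside this division. The mean over the 42 genes was 10.57 ± 0.06 in numbers 1 and 2 and 10.81 ± 0.03 in numbers 3 and 4 (SD, n = 4 each). Within the titled groups its SD was 0.16 (experimental) and 0.12 (control). The same sign was present in each titled group, with 40 of 42 lower in numbers 1 and 2 among experimental arrays (median −0.27) and 39 of 42 among control arrays (median −0.20). A total of 37 of 42 were lower in both, against 30.5% of all genes. A test of whether the titled groups differed by unequal amounts in the 2 sets of numbers found 0 of 42 at an adjusted p and 0 at an unadjusted p under 0.05 (0% and 4.8% of all genes). Within numbers 1 and 2, 25 of 42 were lower in experimental than in control arrays (median −0.06), and within numbers 3 and 4, 22 of 42 were (median −0.005).

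Loading of the helicase requires Cdc6, an ATPase that is made anew for each round, and Cdc6 had the largest difference by number among the 42. In numbers 1 and 2 it stood at 8.65 and 8.98 (experimental) and at 8.62 and 9.00 (control), against 9.35 and 9.31 (experimental) and 9.18 and 9.42 (control) in numbers 3 and 4. All arrays of numbers 1 and 2 lay below all others, with number 1 the lowest in both titled groups. The difference was −0.50 (SE 0.13, 95% CI −0.81 to −0.20, adjusted p = 0.17), or 70.5% of the level in numbers 3 and 4. The second spot of Cdc6 also separated the numbers, with a difference of −0.63. Orc2, a core subunit of the origin recognition complex, was at 8.15, 8.51, 8.63 and 8.62 in numbers 1 and 2 (experimental arrays before control arrays, here and below) and at 8.81, 8.90, 8.90 and 8.74 in numbers 3 and 4, a difference of −0.36 (SE 0.12, adjusted p = 0.282). On this spot the numbers did not overlap, and experimental 1 was lowest. The second, dimmer spot of Orc2 differed by 0.10, with overlap. Orc1 differed by −0.37 (adjusted p = 0.318) with overlap, as control 1 reached 7.42. Cdt1, which brings the Mcm ring to the origin, differed by −0.24 and Orc6 by −0.21.

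Orc3 and Orc5, also of the origin recognition complex, overlapped between numbers. Orc3 was at 10.49, 10.57, 10.84 and 10.57 in numbers 1 and 2 and at 10.74, 10.52, 10.47 and 10.60 in numbers 3 and 4. Its difference of 0.04 (95% CI −0.23 to 0.31) was opposite in sign to the median of the loading factors (−0.24). Orc5 differed by −0.07 with a wide interval (−0.51 to 0.38), as its signal ran from 5.72 to 6.59 within control arrays of numbers 3 and 4 alone.

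The Mcm2-7 ring is the motor of the replicative helicase, with 6 related ATPase subunits, and all 6 were lower in value in numbers 1 and 2 (median −0.28). Mcm2 was at 10.65, 10.51, 10.62 and 10.62 in numbers 1 and 2, against 10.95, 11.39, 10.93 and 11.00 in numbers 3 and 4. The sets of numbers did not overlap, and experimental 4 stood above the rest. The difference was −0.47 (SE 0.12, 95% CI −0.76 to −0.18, adjusted p = 0.178), or 72.4% of the level in numbers 3 and 4. Mcm3 was at 13.04, 12.92, 12.85 and 13.09 against 13.30, 13.30, 13.21 and 13.31, again without overlap, and differed by −0.31 (SE 0.09, adjusted p = 0.231). Mcm7 was at 12.12, 12.32, 12.14 and 12.55 in numbers 1 and 2, against 12.69, 12.71, 12.72 and 12.53 in numbers 3 and 4. Control 2 lay just above control 4 here, the one overlap, and the difference was −0.38 (SE 0.13, adjusted p = 0.268). Its second spot differed by −0.52, with overlap, at a mean signal of 5.69 that lay below the median of all genes (5.79). Mcm4, Mcm5 and Mcm6 differed by −0.21, −0.25 and −0.25, and of these only Mcm6 separated the numbers. Mcm5 was at 11.52, 11.77, 11.46 and 11.80 in numbers 1 and 2, against 11.94, 11.96, 11.94 and 11.71 in numbers 3 and 4, with control 4 below experimental 2 and control 2. The mean of the 6 genes was 12.20 ± 0.11 in numbers 1 and 2 and 12.51 ± 0.05 in numbers 3 and 4 (SD, n = 4 each).

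Among the 7 factors that switch the loaded ring on, Cdc45 and Dbf4 had the largest differences. Dbf4, the regulatory subunit of the Cdc7 kinase, was at 8.53, 8.38, 8.39 and 8.52 in numbers 1 and 2, against 8.84, 9.04, 8.84 and 8.84 in numbers 3 and 4. No array overlapped, and the smallest p among the 42 genes was that of Dbf4, with a difference of −0.43 (SE 0.10, 95% CI −0.66 to −0.21, adjusted p = 0.117). The other 2 of its 3 spots differed by −0.05 and −0.33, both with overlap. Cdc7, the kinase itself, is outside the 42 members and differed by −0.15, with overlap. Cdc45, which joins the ring as part of the active helicase, was at 6.95, 6.92, 7.08 and 7.27 in numbers 1 and 2, against 7.62, 7.62, 7.59 and 7.35 in numbers 3 and 4. Its difference was −0.49 (SE 0.12, 95% CI −0.77 to −0.21, adjusted p = 0.15), again without overlap, or 71.2% of the level in numbers 3 and 4. The second spot of Cdc45 differed by −0.245, with overlap. Mcm10, which is needed to activate the assembled helicase, differed by −0.38 (adjusted p = 0.219) and also separated the numbers.

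The 4 subunits of GINS, which sits between Cdc45 and the ring, were unequal. Gins1 differed by −0.31 and Gins2 by −0.20. Gins3 was at 13.11, 13.01, 13.30 and 13.05 in numbers 1 and 2 and at 13.08, 13.15, 13.10 and 13.22 in numbers 3 and 4, with a difference of −0.02 (95% CI −0.25 to 0.21). Gins4 was at 10.45, 10.35, 10.44 and 10.12 in numbers 1 and 2 and at 10.29, 10.28, 10.29 and 10.40 in numbers 3 and 4. Both overlapped throughout, and the difference of Gins4, 0.03 (95% CI −0.22 to 0.28), was opposite in sign to the median of its group (−0.31).

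**Figure D2:**
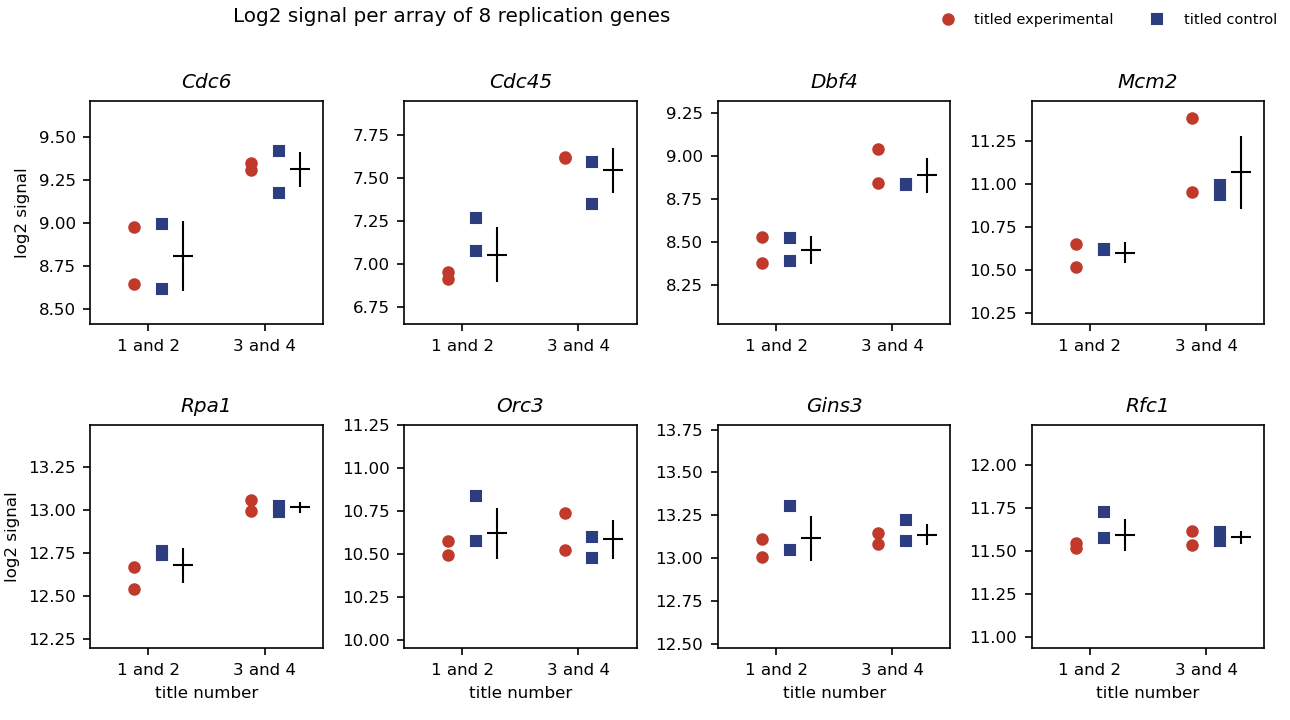
Log2 signal per array of 8 replication genes (vertical axis) in numbers 1 and 2 and in numbers 3 and 4 (horizontal axis), with experimental arrays as circles, control arrays as squares and mean ± SD of 4 arrays as a bar; every panel spans the same range of log2 units. Cdc6, Cdc45, Dbf4, Mcm2 and Rpa1 separate the numbers, while Orc3, Gins3 and Rfc1 overlap.

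Among the polymerases of the fork, the medians of the members that prime and of the members that extend were unlike on the brightest spots. This was not tested, and not every subunit of the extending polymerases was a member. Polymerase alpha with primase lays down the RNA-DNA primers, and its 4 genes had the smallest median difference of the 9 groups, −0.10. Prim1, the catalytic primase subunit, was at 11.02, 11.12, 11.12 and 11.15 in numbers 1 and 2, against 11.20, 11.33, 11.24 and 11.20 in numbers 3 and 4. These values did not overlap, but the difference was small (−0.14, SE 0.09, adjusted p = 0.549). Prim2, the large primase subunit, was at 10.12, 9.97, 10.42 and 10.13 against 10.25, 10.32, 10.18 and 10.44, with overlap, and differed by −0.14. Pola1 differed by −0.06 on its brightest spot and by −0.31 on its dimmer second spot, with overlap on both. Pola2 differed by −0.01 with an interval of −0.69 to 0.66, and it was the most variable member, from 6.37 in experimental 4 to 7.53 in control 4.

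Polymerases delta and epsilon extend the strands, and they were lower in value in all 4 genes measured, and in all 4 the numbers did not overlap (median −0.30). Pole2, an accessory subunit of the leading-strand polymerase epsilon, was at 8.52, 8.79, 8.84 and 9.01 in numbers 1 and 2, against 9.08, 9.24, 9.13 and 9.19 in numbers 3 and 4. The difference was −0.37 (SE 0.11, adjusted p = 0.235). Pold2, an accessory subunit of polymerase delta, was at 11.28, 11.27, 11.22 and 11.23 in numbers 1 and 2, against 11.43, 11.76, 11.44 and 11.73 in numbers 3 and 4, where number 4 exceeded number 3 in both titled groups. It differed by −0.34 (SE 0.11, adjusted p = 0.268). The catalytic subunits Pold1 and Pole differed by −0.26 and −0.19.

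Pcna, the clamp that tethers polymerase delta to DNA, was at 12.72, 12.99, 12.88 and 13.21 in numbers 1 and 2, against 13.21, 13.37, 13.20 and 13.23 in numbers 3 and 4. Control 2 reached the range of numbers 3 and 4, and the difference was −0.31 (SE 0.12, adjusted p = 0.349). The loader that opens this clamp was mixed. Rfc5 was at 11.62, 11.69, 11.57 and 11.68 in numbers 1 and 2, against 11.93, 11.77, 11.90 and 11.85 in numbers 3 and 4, without overlap (difference −0.23, SE 0.09, adjusted p = 0.328). Rfc3 differed by −0.24 and also separated the numbers, whereas Rfc2 and Rfc4 differed by −0.09 and −0.08 with overlap. Rfc2 was at 11.90, 11.87, 11.97 and 11.95 in numbers 1 and 2, against 11.89, 12.04, 11.98 and 12.15 in numbers 3 and 4. Rfc1, the large subunit, was at 11.55, 11.52, 11.73 and 11.58 in numbers 1 and 2 and at 11.54, 11.62, 11.56 and 11.61 in numbers 3 and 4. Its difference of 0.01 (95% CI −0.19 to 0.22) was opposite in sign to the group median of −0.16.

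RPA coats the single strands that the helicase exposes. Rpa1, its large DNA-binding subunit, was at 12.54, 12.67, 12.74 and 12.77 in numbers 1 and 2, against 12.99, 13.06, 12.99 and 13.03 in numbers 3 and 4. The gap between the sets exceeded the range within numbers 3 and 4, and the difference was −0.34 (SE 0.09, 95% CI −0.54 to −0.13, adjusted p = 0.172), or 79.1% of the level in numbers 3 and 4. Rpa2 was at 8.86, 8.90, 8.80 and 8.87 in numbers 1 and 2, against 9.09, 9.30, 9.07 and 9.28 in numbers 3 and 4, and differed by −0.33 (SE 0.10, adjusted p = 0.219). The second spot of Rpa2, dim at a mean signal of 3.56, differed by 0.46, with overlap. The smallest subunit, Rpa3, was at 11.54, 11.45, 11.63 and 11.49 in numbers 1 and 2 and at 11.52, 11.61, 11.64 and 11.64 in numbers 3 and 4. It differed by −0.07 (95% CI −0.27 to 0.13) with overlap.

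On the lagging strand, RNase H2 and Fen1 remove primers and Lig1 seals the nicks. Fen1 was at 11.85, 11.88, 12.03 and 11.97 in numbers 1 and 2, against 12.20, 12.10, 12.18 and 12.23 in numbers 3 and 4 (difference −0.25, SE 0.08, adjusted p = 0.268). Rnaseh2a, the catalytic subunit of RNase H2, was at 9.05, 9.33, 9.32 and 9.24 against 9.35, 9.50, 9.41 and 9.54 (difference −0.21, SE 0.10). In both, and in Lig1 (difference −0.17), numbers 1 and 2 lay wholly below numbers 3 and 4. CAF-1 deposits histones H3 and H4 behind the fork, and both of its subunits measured here separated the numbers too. Chaf1a was at 9.70, 9.95, 9.74 and 9.89 in numbers 1 and 2, against 10.13, 10.10, 10.20 and 10.08 in numbers 3 and 4 (difference −0.31, SE 0.10, adjusted p = 0.247). Chaf1b was at 11.35, 11.41, 11.24 and 11.62 against 11.71, 11.63, 11.84 and 11.80 (difference −0.34, SE 0.11, adjusted p = 0.249).

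**Figure D3:**
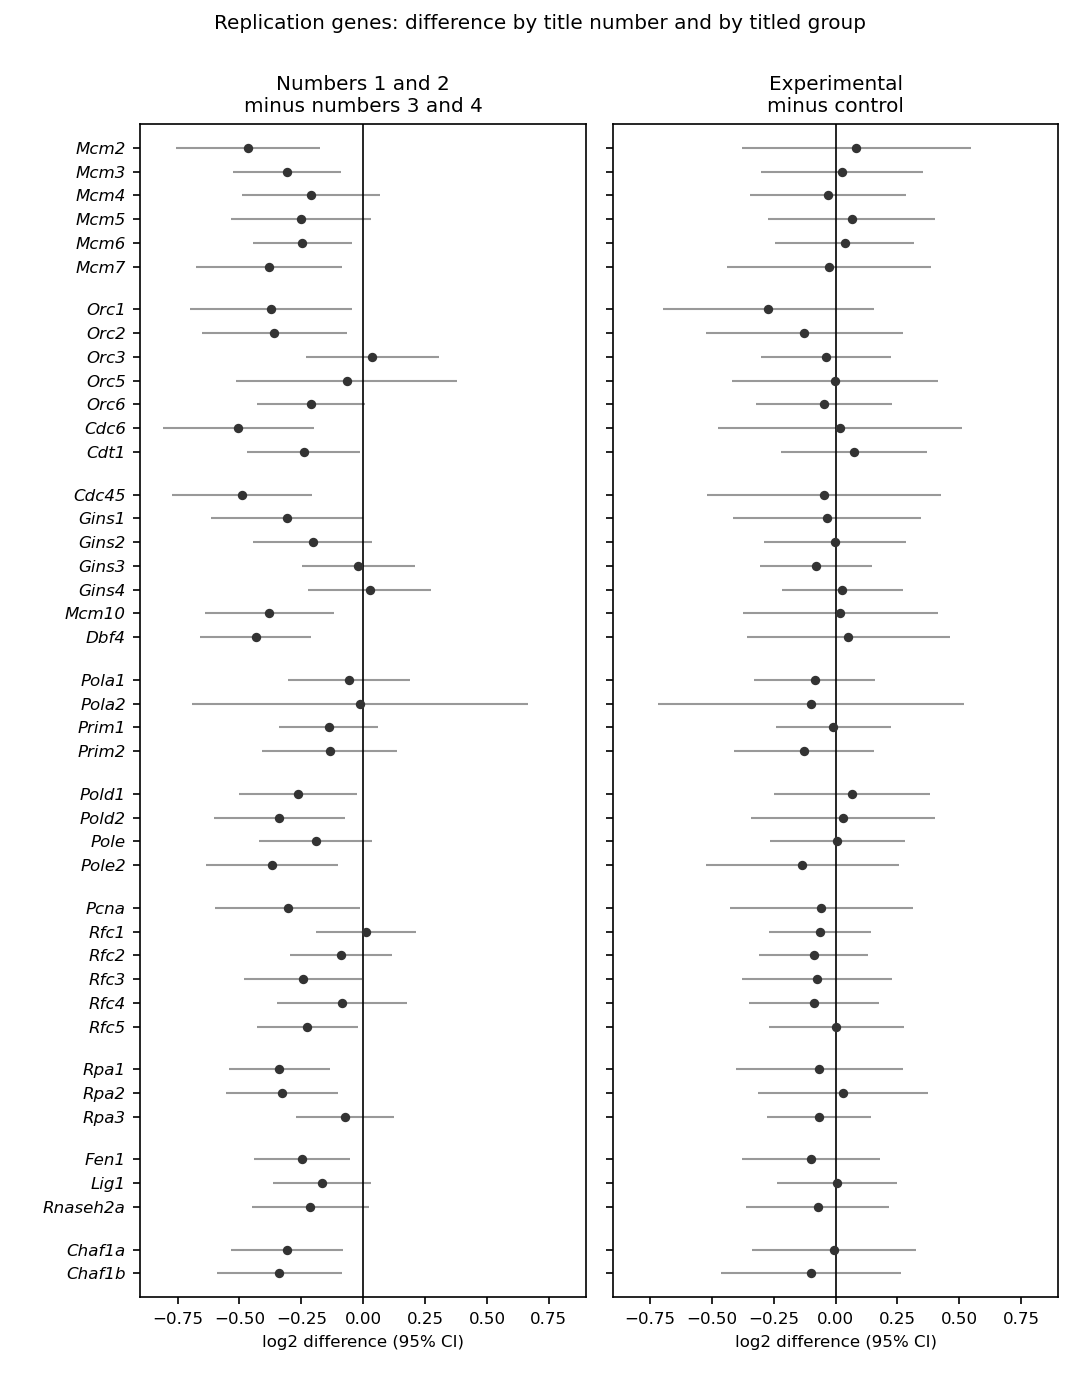
Log2 difference with its 95% CI for each of the 42 replication genes (rows, grouped by complex), for numbers 1 and 2 minus numbers 3 and 4 on the left and for experimental minus control on the right. On the left 39 of 42 points lie below 0, with Cdc6 lowest at −0.50; on the right the points lie around 0, with 27 of 42 below it, and every interval crosses it.

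Spots other than the brightest followed in part. The 42 genes had 84 spots, and 73 of these were lower in value in numbers 1 and 2. Of the 27 genes with several spots, 21 had the same sign on every spot. Among 25 further spots above the median signal, 23 had the sign of the brightest spot of their gene, and among 17 dimmer ones, 13 did. With all spots tested singly, 0 of the 84 passed.

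As a description across the 8 arrays, which fall into the 2 sets of numbers, the median correlation over the 861 pairs of members was 0.60, and 719 pairs were positive. After the mean of each set was removed, the median was 0.16. Rpa1 followed the mean of the other members most closely (r = 0.99), followed by Pole2 (0.94) and Cdc6 (0.93), whereas Gins4 (−0.35), Orc3 (−0.12), Rfc1 (−0.03), Orc5 (−0.01), Pola2 (0.01) and Gins3 (0.08) did not follow it.

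Most other genes of S phase were also lower in value in numbers 1 and 2, while genes of mitosis were divided in sign. None of the pathway genes named here passed after adjustment. Of all genes, 50.2% were lower in sign and 5.39% lay wholly below in numbers 1 and 2 (8.88% of those above the median signal). Of 28 other replication factors, 24 were lower in value in numbers 1 and 2 (median −0.17) and 8 lay wholly below, among them Donson (−0.30), a helicase assembly factor, Tipin (−0.30), of the fork protection complex, and the histone chaperone Asf1b (−0.25), while Recql4 (−0.32) overlapped. All 8 measured genes of nucleotide supply were lower in value (median −0.31; 6 wholly below), with Dctpp1 at −0.39, Dut at −0.35, Cad at −0.39 and Shmt1, which feeds folate-dependent thymidylate synthesis, at −1.25. Of 13 E2f factors and pocket proteins, 12 were lower in value (median −0.16, 5 wholly below). Among them were E2f3 (−0.86), E2f4 (−0.43), their partner Tfdp1 (−0.39) and E2f8 (−0.32). E2f3 was dim, with a mean signal of 5.53, below the median of all genes (5.79). E2f1 (−0.11) and E2f2 (0.04) overlapped between numbers. Among 16 regulators of the step from G1 to S, 13 were lower in value (median −0.30, 11 wholly below). These included Myc (−0.58, adjusted p = 0.0695), the G1 kinase Cdk6 (−0.39), cyclin D1 (Ccnd1, −0.64) and cyclin E2 (Ccne2, −0.78). Ccne2 was dim, with a mean signal of 4.67. The 3 higher in value were the Cdk inhibitors Cdkn1a (0.33), Cdkn1b (0.13) and Cdkn1c (0.125), all with overlap. Of 5 genes for histone mRNA processing, 4 were lower in value, led by Casp8ap2 (−0.28) and Slbp (−0.30), with Lsm11 at −0.16 and Lsm10 at 0.07.

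For 30 genes of mitosis the median was −0.04, with 17 lower and 13 higher in value. In 0 of 30 did numbers 1 and 2 lie wholly below (5.39% of all genes), and in 3 they lay wholly above (5.17% of all genes). Bub1 and Mad2l1, of the spindle checkpoint, differed by −0.20 and −0.21, while securin (Pttg1) and the kinetochore motor Cenpe differed by 0.19 and 0.20. The mean over these 30 genes was 11.32 ± 0.04 in numbers 1 and 2 and 11.33 ± 0.03 in numbers 3 and 4 (SD, n = 4 each). Whether the lists differ from each other was not tested.

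**Figure D4:**
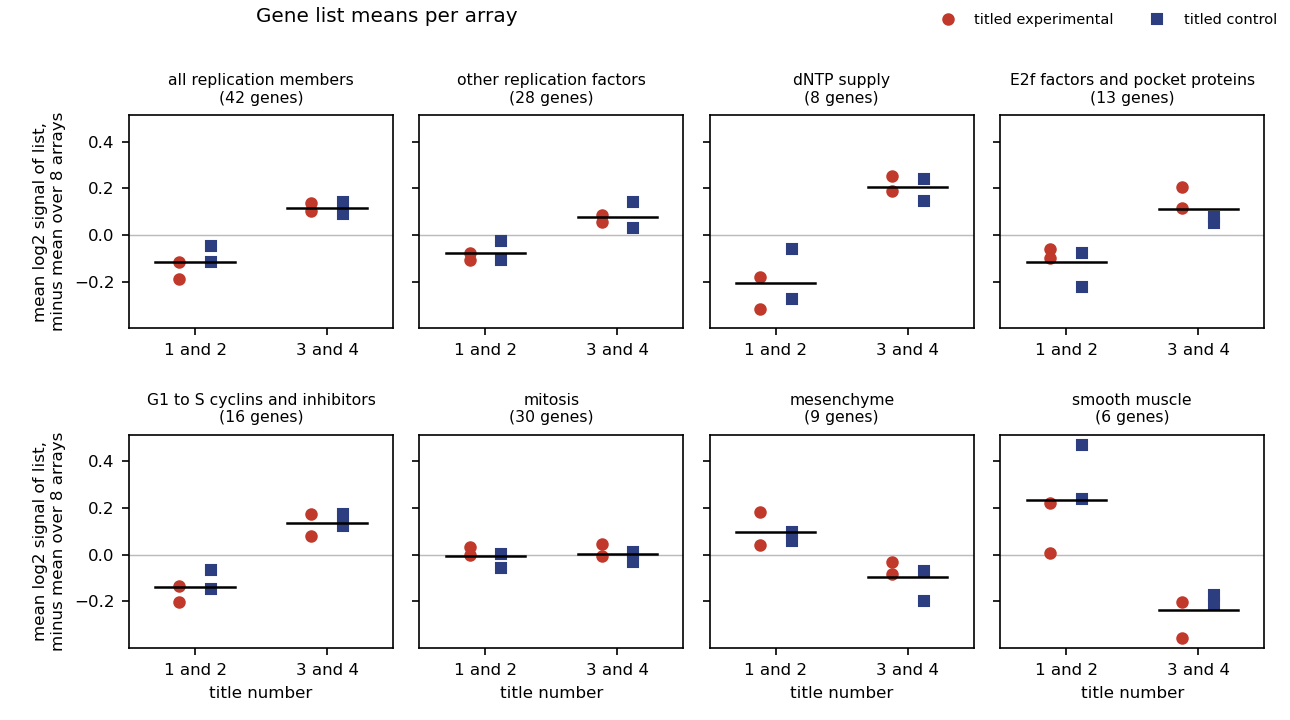
Mean log2 signal of 8 gene lists per array, as the difference from the list's mean over the 8 arrays (vertical axis), in numbers 1 and 2 and in numbers 3 and 4 (horizontal axis); circles are experimental arrays, squares control arrays and lines the means of 4 arrays. The replication, nucleotide supply, E2f and G1 to S lists lie lower in numbers 1 and 2, the 2 mesenchymal lists lie higher, and the mitosis list lies at 11.32 and 11.33.

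Promoter sequence was examined because E2f factors are the known regulators of many of these genes. RefSeq windows (GRCm38.p6) running from 250 bases before to 50 after each start matched 35 of the 42 members; Mcm4, Gins1, Gins2, Gins4, Prim2, Pole and Rfc2 were not matched. The windows were searched on both strands for 4 forms of the E2f word, TTTCCCGC, TTTCGCGC, TTTGCCGC and TTTGGCGC, and overlapping matches were each counted. At least 1 word was present in 14 of 35 members (40%), against 1 of 26 genes of the mitosis list (3.85%) and 704 of 27025 genes with a window (2.6%). The words TTTGAA and TTCGAA, core forms of the element known from genes of mitosis, were in 8 of 35 members (22.9%), 19 of 26 genes of mitosis (73.1%) and 21.7% of all genes. A match describes these letters and is not a binding site. Among the 6 members with the smallest p by number (Dbf4, Cdc45, Cdc6, Rpa1, Mcm2 and Mcm10), the E2f word was in 1, Cdc6. The median difference by number was −0.25 in the 14 members with a word and −0.31 in the 21 without.

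Stretches of 100 bases before the start are shown 5′ to 3′ on the strand of the gene, with the E2f words, and no others, in capitals. Cdc6 is shown as the member with the largest difference by number, Mcm5, Mcm6 and Mcm7 as subunits of 1 ring in which 4 of 5 matched promoters held a word, and Orc3 and Gins3 as members that hold a word but overlapped between numbers; all were picked with their values known.
Cdc6, chr11:98907967-98908066, plus strand: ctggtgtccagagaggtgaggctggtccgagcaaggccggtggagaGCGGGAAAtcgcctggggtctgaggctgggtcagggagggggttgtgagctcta
Mcm5, chr8:75109312-75109411, plus strand: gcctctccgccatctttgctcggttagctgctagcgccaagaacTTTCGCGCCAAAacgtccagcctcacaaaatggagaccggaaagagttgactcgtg
Mcm6, chr1:128359731-128359830, minus strand: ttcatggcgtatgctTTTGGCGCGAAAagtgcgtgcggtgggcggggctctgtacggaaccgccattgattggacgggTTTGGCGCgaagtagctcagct
Mcm7, chr5:138171995-138172094, minus strand: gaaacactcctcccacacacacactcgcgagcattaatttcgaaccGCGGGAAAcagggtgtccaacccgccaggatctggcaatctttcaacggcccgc
Orc3, chr4:34614943-34615042, minus strand: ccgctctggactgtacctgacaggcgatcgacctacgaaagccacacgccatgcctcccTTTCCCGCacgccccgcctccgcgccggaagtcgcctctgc
Gins3, chr8:95633459-95633558, plus strand: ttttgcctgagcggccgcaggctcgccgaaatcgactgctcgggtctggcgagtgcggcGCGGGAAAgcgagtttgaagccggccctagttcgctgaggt
In Mcm5 the capitals are 2 words that share letters on opposite strands, and in Mcm6 a pair of the same kind is followed by 1 further word. Cdc6, Mcm7, Orc3 and Gins3 each hold 1 copy of TTTCCCGC here, read on the opposite strand in all but Orc3. The same word was thus present in Cdc6, with a log2 difference by number of −0.50, in Mcm7 (−0.38), and in Orc3 (0.04) and Gins3 (−0.02).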

How the data were processed

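The authors amplified total RNA of each left lobe, labelled it with Cy3, hybridized it to Agilent arrays and read the spots. Per the methods, the background step was normexp with offset 1, fitted on negative control spots, followed by logarithms and quantile normalization across arrays in limma, which the submitters' processing notes also name. The deposited values are log2 signals of 62976 spots on each of 8 arrays (base read from their range, 2.00 to 16.00); 2 values were missing. Each array had a median of 4.43. Since scanner output was not used here, detection above background is not given, and the number of arrays limits the precision.

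The platform annotation named 43941 spots with 1 symbol, 0 with several and left 19035 unnamed. Symbols were updated by accession for 33708 spots (1424 changed; names only). Each of 24583 genes was represented by its brightest spot; the study averaged replicate spots first and grouped probes by gene ID, which was not repeated here. Members and lists were chosen with earlier results of these data known. Members named with values per array are Mcm2, Mcm7 and Cdc6, the 2 of each complex with the smallest p by number and those opposite in sign to their complex, and the member of each complex with the smallest p by titled group. Up to 4 genes of each pathway list are named, by smallest p. E2f1, E2f2, the Cdk inhibitors and some further subunits or partners of members were added.

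Differences were fitted with limma 3.58.1 in R 4.3.3 (lmFit, eBayes, two-sided, Benjamini-Hochberg over all genes, threshold 0.05): experimental minus control unpaired, numbers 1 and 2 minus numbers 3 and 4 with a term for titled group, and their interaction. The code was tested on simulated data. After group means were removed, arrays that share a number correlated across genes at 0.109, 0.146, 0.124 and 0.117, all above 0.1. Each array correlated best with its own number, so a block on the number was an alternative. The sets of numbers and the sex-linked transcripts also separate the numbers, so these correlations cannot show a pairing. With the sets in the model, the correlation within a random block was −0.011. Further alternatives were other summaries of spots, a filter on dim genes, intensity-dependent and unmoderated spread, rescaling, and leaving out arrays.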

Additional observations from a re-analysis of the deposited data

Results flagged for a closer look

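In a search of 104 sets of 4 arrays (the 42 genes and 10 means over complexes, each in the experimental and the control arrays), 4 had 1 array that stood apart from the other 3 by Dixon's criterion, which chance gives in about 1 of 20 sets. Orc6 was 11.22 in control 1, against 11.46 to 11.49 in the other control arrays. Pcna was 12.88 in control 1, against 13.20 to 13.23. Rfc2 was 12.15 in control 4, against 11.95 to 11.98. Rpa3 was 11.49 in control 2, against 11.63 to 11.64.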

How the results depend on the processing

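For experimental minus control, 0 genes and 0 members passed under each of the 16 alternatives, the replicate block included, and without both arrays of any 1 number; the median of the members ran from −0.08 to 0.03 when 1 array was left out. The block changed no call, and as a random block it gave 188 genes and 0 members by number. For numbers 1 and 2 minus numbers 3 and 4, the count of genes passing (185) was 117 with the mean and 102 with the median of all spots, 845 with genes above the median signal, 1083 with a spread that followed intensity, 61 without moderation, 7 in an F-test over the 4 numbers, and 35 (without control 3) to 72 (without control 2) with any 1 array left out. Without both arrays of number 1, 2, 3 or 4, alternatives chosen after seeing the data, it was 7, 25, 5 and 8. The members passing (0) became 6 with genes above the median signal and 12 with the intensity-dependent spread, and stayed at 0 under the other alternatives. Their median (−0.24) was −0.18 without number 1 and −0.29 without number 2, and −0.28 to −0.22 with 1 array left out. Members lower in sign numbered 36 to 41 (39 with all arrays), and those at an unadjusted p under 0.05 (23) numbered 6, 19, 9 and 7 without number 1, 2, 3 or 4, and 7 in the F-test. No called value changed direction. The interaction gave 0 genes under its 6 alternatives. Rescaling moved the median of all genes by at most 0.005. Where the cause of a change is not the setting's own smaller set of genes or arrays, the cause was not tested.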
